A study of Arabidopsis thaliana with 2 samples.

Results

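Histone H2A variants replace the core H2A protein in a share of the nucleosomes. H2A.X ends in an SQEF motif whose serine is phosphorylated by the kinases ATM and ATR near DNA breaks. H2A.Z is placed by the SWR1 remodelling complex, mainly in the first nucleosomes of genes, and in Arabidopsis acts in flowering time and the response to temperature. H2A.W, a plant variant with KSPKK motifs in its tail, lies in heterochromatin, where the remodeller DDM1 acts. The reads described here are those that overlapped, on the same strand, the exons of 8 Arabidopsis thaliana genes, taken by locus tag: HTA3 (AT1G54690) and HTA5 (AT1G08880) for H2A.X, HTA8 (AT2G38810), HTA9 (AT1G52740) and HTA11 (AT3G54560) for H2A.Z, and HTA6 (AT5G59870), HTA7 (AT5G27670) and HTA12 (AT5G02560) for H2A.W. They numbered 235.5 of the 253011 reads on nuclear gene exons in replicate 1 and 150.5 of 239558 in replicate 2. The 8 genes are a small set among the 21531 nuclear genes with at least 1 read.

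The material was wild-type inflorescences of the accession Col-0, with flower buds still closed, from plants with no treatment named in the labels. Each of the 2 biological replicates gave a PacBio library from 10 µg of total RNA, and the RNA integrity number was 9.0 for replicate 1 and 9.2 for replicate 2. A read is a consensus over 1 cDNA molecule that carries both primers and a poly(A) tail. There is 1 condition and no mutant, so no groups were compared. An inflorescence mixes many organs and cell types, so a gene active in fewer cells and a gene with less RNA per cell cannot be told apart.

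Markers fitted the labelled tissue. All 5 floral organ identity genes examined (AP1, AP3, PI, AG and SEP3) had reads in both replicates, with 37 to 160 reads a gene over both, and the tapetum gene A9 had 64 and the carpel gene CRC 17. Of 3 root markers, CASP1 and EXPA7 had no read and COBL9 had 2, and the seed storage genes AT2S1 and CRU3 had none.

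The coding ends of the genes show what separates the classes, so they are given first, as the last 30 coding bases with the stop codon, on the coding strand. Capitals mark the codons of SQEF in H2A.X and of KSPKK in H2A.W. They were read from the TAIR10.1 genome at chr1:20414607-20414636 (HTA3), chr1:2847144-2847173 (HTA5), chr5:24115605-24115634 (HTA6), chr5:9792807-9792836 (HTA7), chr5:576427-576456 (HTA12) and, for an H2A.Z gene that has neither motif, chr1:19646192-19646221 (HTA9).
HTA3: gatatcggatctgctTCTCAAGAGTTTtaa
HTA5: gatattggatctgctTCTCAGGAGTTCtga
HTA6: tcaccagtcAAGTCTCCAAAGAAAgcttaa
HTA7: tctgctaccAAATCTCCTAAGAAGgcttga
HTA12: aaggcaaccAAATCCCCTAAGAAAtcttag
HTA9: agtctcatcaacaaatccgccaaggaatag
Within a class the coding sequences were 67.1% to 88.3% identical over 7 pairs of genes, and between classes 52.5% to 64.6% over 21 pairs. The closest pair was HTA3 and HTA5. A read with several alignments gives each a fraction of its count. Fractional counts made up 0.5 reads of HTA5 in replicate 1 and 0.5 of HTA6 in replicate 2, and 0 reads of the other 6 genes, although split reads can also add up to a whole number.

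H2A.Z genes held 39.5% of the variant reads in replicate 1 and 37.2% in replicate 2. H2A.W genes held 31.0% and 39.5%, and H2A.X genes 29.5% and 23.3%. The 95% Wilson intervals of H2A.Z (33.4% to 45.8% in replicate 1, 30% to 45.3% in replicate 2) overlapped those of H2A.W in both replicates, and those of H2A.X in replicate 1 (24.2% to 35.8%) and replicate 2 (17.3% to 30.7%). H2A.W overlapped H2A.X in replicate 1 (25.4% to 37.1% for H2A.W) but lay above it in replicate 2 (32.5% to 48.0%). No order of the classes was thus resolved in both replicates. All intervals cover counting error only and treat reads as independent. Amplified cDNA without molecular identifiers does not count independent molecules, so the intervals may be too narrow. The same limit holds for the p-values computed from reads below.

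To compare genes, reads were scaled to 1000000 gene reads (RPM) and per kb of the longest annotated transcript. HTA9 had the highest mean level with 225 RPM per kb in replicate 1 and 164 in replicate 2. HTA6 followed with 193 and 169, and HTA5 with 192 and 98.4. These highest levels came from a different class each. HTA7 stood at 121 and 115 RPM per kb, HTA11 at 138 and 60.9, HTA3 at 78.9 and 46.9, and HTA8 at 63.0 and 47.5. HTA12 was the lowest of the 8 with 16.5 and 5.82 RPM per kb, from 6 reads in replicate 1 and 2 in replicate 2. In the order of the means, each of the first 7 genes overlapped its neighbour over the replicates, and only HTA12 stood clear of the gene above it, HTA8. The order of the top genes depends on the length scale, and reads of HTA5, HTA8 and HTA12 covered much less than the longest transcript. In RPM, without length, HTA5 had 211 in replicate 1 and 109 in replicate 2 and HTA9 had 190 and 138, while HTA12 was again the lowest with 23.7 and 8.35.

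**Figure D1:**
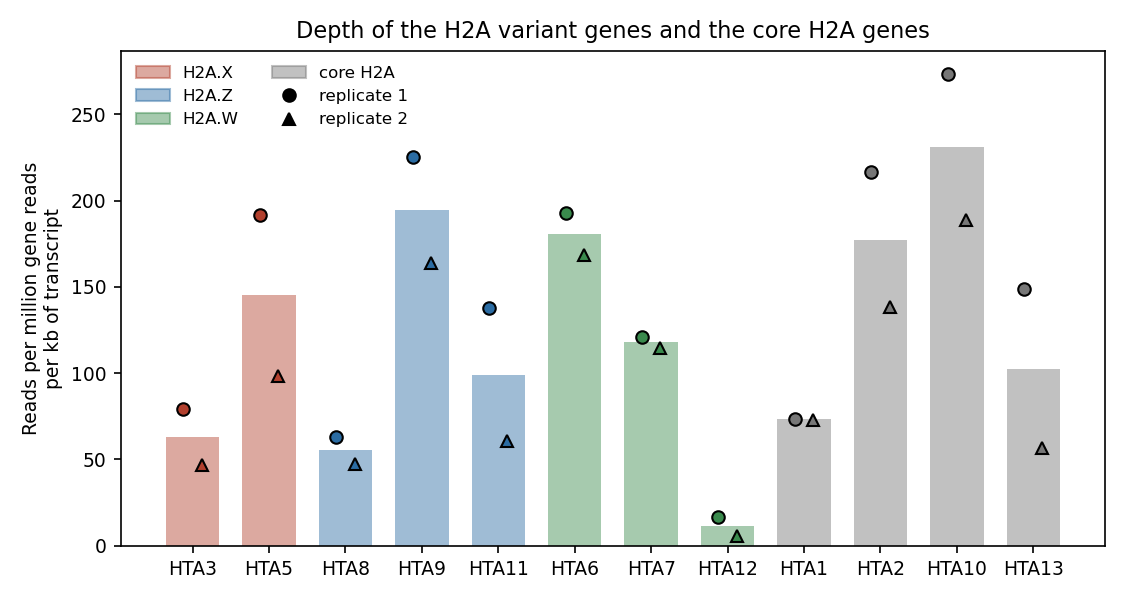
RPM per kb of the longest transcript (vertical axis) for the 8 H2A variant genes and, at the right, 4 core H2A genes; bars are means of the 2 replicates, circles replicate 1 and triangles replicate 2. HTA9 (225 and 164) and HTA6 (193 and 169) lie highest among the variants and HTA12 (16.5 and 5.82) lowest.

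The levels were higher in replicate 1 for 8 of the 8 variant genes, with 931 RPM in total against 628 RPM in replicate 2. The core H2A genes were also higher there (4 of 4, 561 and 367 RPM), while of the 11 H2A.Z exchange genes 6 were, with 759 and 689 RPM. Over all 5577 genes with at least 20 reads in the libraries together, 54.5% had the higher RPM in replicate 1. For single genes, the reads of a gene against all other gene reads were compared between the libraries by a two-sided Fisher's exact test with Benjamini-Hochberg adjustment over 5577 genes, which compares the 2 libraries and not conditions. It called 2.49% of all genes and 0 of the 7 variant genes tested, and a chi-square test also called 0. HTA5 (53.5 reads in replicate 1, 26 in replicate 2) and HTA11 (31 and 13) had an unadjusted Fisher p of 0.00485 and 0.0149, and adjusted p of 0.128 and 0.221 over all genes. On the log2 scale HTA11 differed by 1.14 and HTA5 by 0.96, the widest of the 7. HTA12 had too few reads for the test. The summed RPM of the 8 genes thus differed between the libraries by 1.48 times.

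Together the 8 variant genes gave 386 reads and the 4 core H2A genes, which encode the replicative form, 230. HTA10 was the highest core gene with 273 and 189 RPM per kb in replicates 1 and 2, and HTA1 the lowest with 73.6 and 72.9. The replicate range of HTA9 overlapped that of HTA10, and that of HTA3 held both values of HTA1. HTA4, annotated as an H2A.Z-like gene, had no read, which allows a level of up to 11.9 RPM in replicate 1 and 12.5 RPM in replicate 2.

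Genes that move or modify these histones ranged widely in depth. All 11 genes listed for H2A.Z exchange had reads in both replicates, with 3 to 114 reads a gene and a median of 12. PIE1, the motor subunit of SWR1, had 3 reads in replicate 1 and 1 in replicate 2, and ARP6, a SWR1 subunit needed for normal flowering time, had 4 and 8. The histone chaperone NRP1 led the list with 228 and 169 RPM per kb, close to HTA9, while PIE1 had 1.70 and 0.60 RPM per kb over a transcript of 6964 nt. DDM1 had 5 and 9 reads. Of the H2A.X kinases, ATM had 0 and 2 reads and ATR 1 and 1, with longest transcripts of 9734 nt and 9295 nt. The part of transcript length in these low levels was not tested.

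Each variant gene had at least 1 coding intron, and its place set H2A.Z apart from H2A.X and H2A.W. In all 3 H2A.Z genes 297 coding nt followed the intron, after 108 nt in HTA9 and 114 nt in HTA8 and HTA11. In both H2A.X genes the intron stood after 207 coding nt with 222 left, and in H2A.W after 213 or 216 with 237 to 249 left. The places in H2A.X and H2A.W lay close together, and whether they match in aligned coding sequences was not tested. All these introns fell between codons. Coding introns ranged widely in length, with 87 nt in HTA6, 104 nt in HTA5, 106 nt in HTA7, 171 nt in HTA3, 408 nt in HTA9, 524 nt in HTA11 and 825 nt in HTA8, beside 558 nt in HTA12.

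The coding intron was spliced in most reads that crossed it. HTA9 had 37 spliced reads at the annotated junctions in replicate 1 and 27 in replicate 2, and 0 retained it in either. HTA6 had 30 and 25.5 spliced reads and HTA3 had 16 and 6, again with 0 retained. HTA8 had 13 and 10 reads that joined across its 825-nt intron and 0 that kept it. Retention of a coding intron was seen in 3 genes. In HTA5, 5 reads kept the intron in replicate 1 and 0 in replicate 2, of which 1 was cap-labelled. In HTA7, 4 reads kept it in replicate 1, 2 of them cap-labelled, and 0 in replicate 2. In HTA11, 1 cap-labelled read in each replicate kept the 524-nt intron while its 172-nt intron in the 5′ untranslated region was spliced, as it was in 24 and 11 reads.

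**Figure D2:**
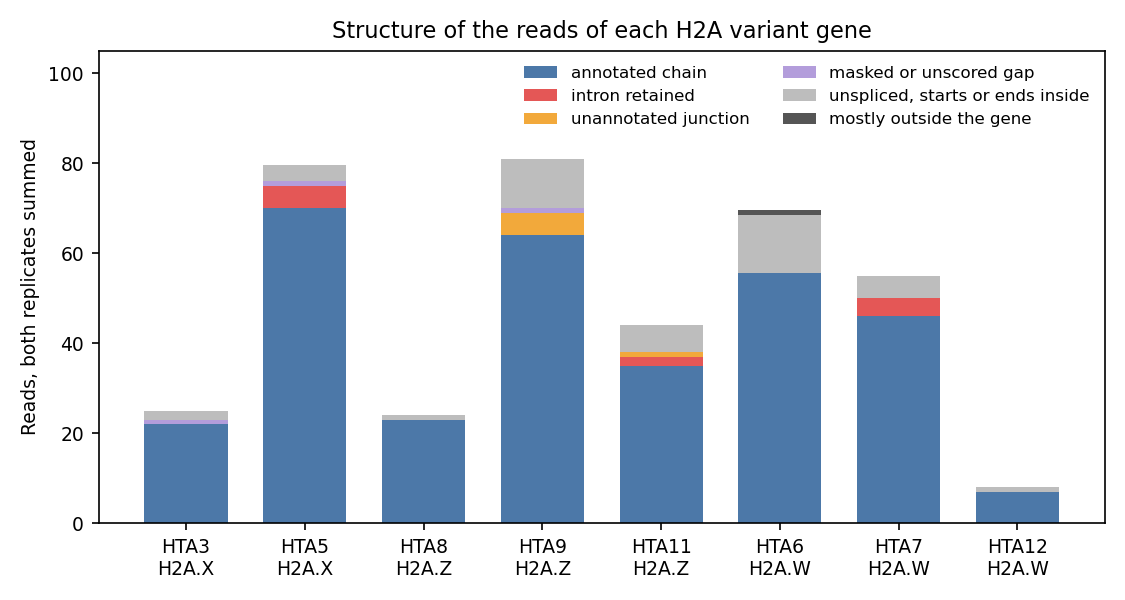
Reads of each H2A variant gene, summed over both replicates (vertical axis), by structure. Reads with an annotated exon chain form the largest part in each gene (322.5 of 386 in all), and reads that retain an intron outside every annotated chain appear in HTA5, HTA7 and HTA11; the 4 HTA8 reads that keep an intron of the 5′ untranslated region match an annotated chain and are counted there.

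Over all 8 genes, 322.5 of the 386 reads matched an annotated exon chain. The next class, 42.5 reads, was unspliced and began or ended inside the gene, and 0 of these reads carried the cap label. Another 11 reads retained an intron and matched no annotated chain, 6 used an unannotated junction, 3 had a gap that the authors' processing had masked or left unscored, and 1 HTA6 read lay mostly over the neighbouring gene. The chain matched in 83.6% ± 0.584 of variant reads, against 80.3% ± 1.33 of the other gene reads (SD, n = 2). For a spliced read this match compared the introns only, and not where the read began or ended. With both ends also within 100 nt of those of the transcript, 18.1% ± 0.225 of variant reads matched, against 20.1% ± 0.553 of other gene reads.

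Each share was tested by a two-sided Fisher's exact test of the gene against all other gene reads in each replicate, adjusted by Benjamini-Hochberg over all genes with at least 20 reads in both, and called when it passed in both replicates in the same direction. HTA5, HTA9, HTA6 and HTA7 reached that depth. The chain match called 15.9% of all genes and 0 of these 4, with 0 also at an unadjusted p under 0.05 in both replicates. For retention, a read counted if it kept any annotated intron, also where another transcript keeps it as exon, which held for 15 of the 386 variant reads, 4 of them HTA8 reads over its 5′ untranslated introns. Intron retention called 32.8% of genes with introns and 0 of the 4. HTA9 (0 of 48 reads in replicate 1 and 0 of 33 in replicate 2, against 9.85% and 10.7% of other reads) had unadjusted Fisher p of 0.0130 and 0.0444 and adjusted p of 0.0358 and 0.088. HTA6, also with 0 retaining reads, had unadjusted Fisher p of 0.0488 and 0.0439 and adjusted p of 0.0968 and 0.088. The other reads were not matched for the number of introns in a gene, and reads that did not reach an intron were counted too. At a minimum of 5 reads, a level chosen after seeing the data, 7 variant genes could be tested. The chain match then called 6.8% of genes and retention 10.3%, and 0 of the 7 variant genes in either. HTA8 had the highest retention share of the 7, with 2 of 14 reads in replicate 1 and 2 of 10 in replicate 2, and an adjusted Fisher p of 0.985 and 0.789.

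Unannotated junctions were few. In HTA9, 3 reads of replicate 1 and 2 of replicate 2 joined the annotated acceptor to a donor 1 nt downstream of the annotated one, and 3 of these 5 reads were cap-labelled. The sequence around that donor shows the step, with the annotated GT in capitals, at chr1:19645507-19645530 on the forward strand.
HTA9 donor: tggtctccagGTagattataatct
The shifted intron of 407 nt begins with TA instead of GT. Whether it reflects splicing or the placing of 1 base in the alignment was not tested. In HTA3, HTA5 and HTA9, 1 read each placed the acceptor 1 nt beyond the annotated one, and these introns lacked the final AG. The reads of HTA3 and HTA5 are among those counted above as having a gap. In HTA11, 1 read of replicate 1 used a donor 8 nt upstream of the annotated one, which leaves 106 coding nt before the intron in place of 114. The 72-nt exon that 1 annotated transcript of HTA12 holds between its 71-nt and 415-nt introns was seen in 0 reads, while 6 reads in replicate 1 and 1 in replicate 2 spliced the 558-nt intron.

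At the 5′ end, a cap label marks a read with an untemplated G, which is read as the trace of the RNA cap. It was on 56.4% ± 1.84 of the variant reads, against 58.3% ± 1.09 of the other gene reads (SD, n = 2). At 20 reads the cap label called 3.29% of all genes and 0 of 4 variant genes, and at 5 reads 0.678% of genes and 0 of 7, with 0 at an unadjusted Fisher p under 0.05 in both replicates either way. HTA8 had the lowest share of the 7 with 5 of 14 reads in replicate 1 and 3 of 10 in replicate 2. HTA3 had 12 of 16 and 6 of 9.

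**Figure D3:**
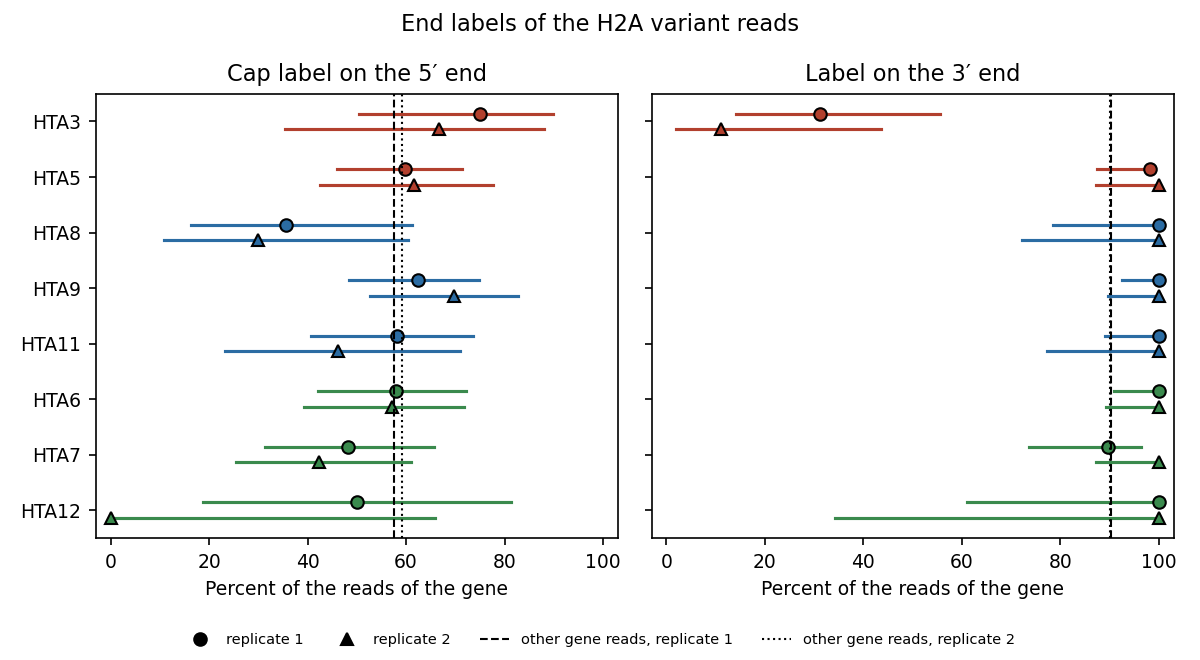
Percent of the reads of each H2A variant gene (horizontal axis) with a cap label at the 5′ end (left) or a label at the 3′ end (right), with 95% Wilson intervals; circles are replicate 1, triangles replicate 2, and vertical lines all other gene reads. HTA3 lies far below the line for the 3′ label (31.3% and 11.1%), and HTA8 has the lowest cap label share among the 7 genes with at least 5 reads in each replicate (35.7% and 30%).

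The capped starts of HTA5 and HTA6 were sharp. In HTA5, 30 of 32 cap-labelled reads in replicate 1 and 16 of 16 in replicate 2 began at the same base, 322 nt inside the annotated 5′ end of the gene. In HTA6 it was 20 of 22 and 18 of 18, at 7 nt inside that end. Within 2 nt of the main start lay 97.9% of the cap-labelled reads of HTA5 and 95% of those of HTA6, against a median of 41.7% (quartiles 28.6% and 60%) over 6323 other genes with at least 10 cap-labelled reads. Of those genes, 40 were more concentrated than HTA5 and 73 more than HTA6. HTA3, where 9 of 12 and 5 of 6 began exactly at the annotated end, came next among the variants with 77.8%.

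The H2A.Z genes had less concentrated starts than these 3, although HTA9 and HTA11 lay above the median of all genes. HTA9 used 18 positions over 108 nt, with 45.3% of its cap-labelled reads within 2 nt of the main one, which held 15 of 30 reads in replicate 1 and 5 of 23 in replicate 2. Of the 6323 other genes 2840 were more concentrated than HTA9 and 2258 more than HTA11. HTA11 used 10 positions, 50% within 2 nt, and 1 cap-labelled read of replicate 1 began 471 nt upstream of the main start. HTA8 had only 8 cap-labelled reads, on 6 positions over 140 nt. HTA7, an H2A.W gene, was intermediate with 56%, on 11 positions over 115 nt. HTA12 had 3 cap-labelled reads, 2 of them at the same base.

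**Figure D4:**
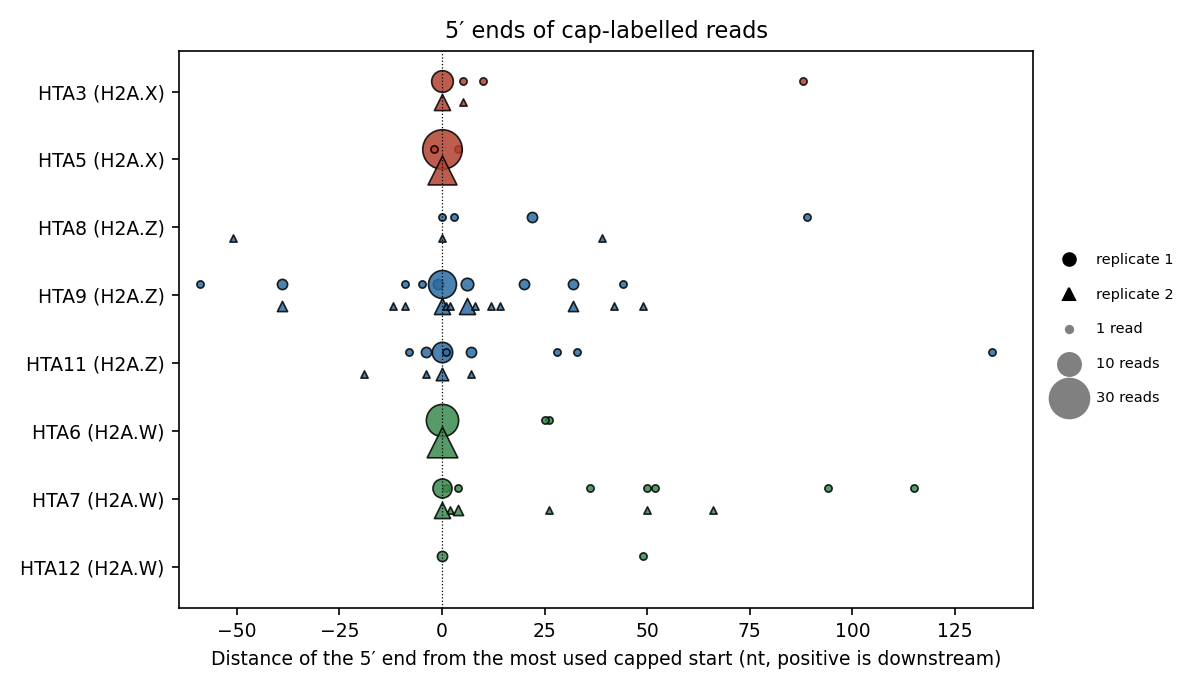
Distance in nt of the 5′ ends of cap-labelled reads from the most used capped start of each H2A variant gene (horizontal axis), with symbol area by number of reads, circles for replicate 1 and triangles for replicate 2; 1 HTA11 read 471 nt upstream lies outside the axis. The reads of HTA5 (46 of 48 at the main base) and HTA6 (38 of 40) stack on 1 position, and those of HTA9 spread over 18.

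The bases upstream of the starts are shown for the sharp genes, for those with a TATA sequence and, as a gene with neither, for HTA9, from 40 to 11 nt before the main capped start on the transcript strand. Capitals mark TATAAA or TATATA, searched on the transcript strand with their first base 20 to 45 nt upstream. The TAIR10.1 windows are chr1:20415298-20415327 (HTA3), chr5:24116224-24116253 (HTA6), chr5:9793468-9793497 (HTA7), chr1:2847789-2847818 (HTA5) and chr1:19645267-19645296 (HTA9).
HTA3: tctcaacgcTATATAtttcagaaatcacaa
HTA6: ttaccTATAAAtatcacagagtacccttca
HTA7: atacgtggTATATAcatacacgtcgttctt
HTA5: gtagcctatacatatagagaagagcaaaac
HTA9: tgtctctctctatctggggaaaacgtctat
A match stood 31 nt upstream in HTA3, 35 nt in HTA6 and 32 nt in HTA7, so 3 of the 7 variant genes with at least 5 cap-labelled reads held one, and 23.2% of the 10500 genes with as many. HTA12, with 3 such reads, held none. HTA5, the sharpest of the 8, held neither sequence in that window. The octamer CGCGGATC, known from plant histone promoters, lay on either strand from 250 nt before to 50 nt after the start in HTA6 only, and in 0.210% of the genes. In 5 of these 7 variant genes the main start was an A after a C or T, against 63.2% of the 10500 genes. A capped end next to a genomic G cannot show an untemplated one, which bears on that share. HTA8 counts among these 7 genes, though its main start held 2 of 8 cap-labelled reads and another base held as many.

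From the main capped start to the start codon, spliced leaders measured 81 nt in HTA3, 102 nt in HTA5, 54 nt in HTA8, 102 nt in HTA9, 90 nt in HTA11, 69 nt in HTA6, 92 nt in HTA7 and 104 nt in HTA12. The values of HTA8 and HTA12 rest on 2 cap-labelled reads each, and in HTA8 another base held as many, whereas those of the other genes rest on 11 to 46. A read covered the whole coding region in 202 cases in replicate 1 and 125.5 in replicate 2, and 216 of these 327.5 reads carried the cap label.

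HTA8 differed from the other variant genes in where its reads began. In replicate 1, 8 of its 14 reads, and in replicate 2, 6 of its 10, began at the same base and carried no 5′ label at all. Reads without a 5′ label were 3.09% and 2.79% of the other gene reads, and 13 of 8402 genes (0.155%) had a share of at least 50% in both replicates. This measure was chosen after the values were seen, so it is a description with no test. The base is the A of the AG that ends the upstream intron of HTA8, 4 nt before the start codon. The surrounding bases are given with the AG and the ATG in capitals, at chr2:16220672-16220701 on the transcript strand.
HTA8: tttttgtttggtttctgtAGatATGgctgg
All 8 cap-labelled reads of HTA8 began further upstream. Of these, 3 in replicate 1 and 1 in replicate 2 spliced the 144-nt intron of the 5′ untranslated region, and 2 in each replicate ran unspliced into the start codon. These unspliced reads crossed the whole 144-nt intron in 1 read of replicate 1 and 2 of replicate 2, and the remaining read began inside it. Annotated transcripts of HTA8 exist with this intron and without it, so both forms matched the annotation. What left the other reads without a 5′ label was not tested.

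At the 3′ end, HTA3 stood apart. A 3′ label was on 5 of 16 HTA3 reads in replicate 1 and on 1 of 9 in replicate 2, against 90.3% and 90.1% of other gene reads. At the minimum of 5 reads a lower 3′ label share was called for 5.21% of all genes and for 1 of the 7 variant genes, HTA3, with an adjusted Fisher p of 8.42e-07 in replicate 1 and 3.20e-06 in replicate 2. Calls in either direction made up 7.95% of genes at 5 reads and 24.2% at 20 reads, where 0 of the 4 variant genes was called and 0 had an unadjusted p under 0.05 in both replicates. Every read of HTA8, HTA9, HTA11, HTA6 and HTA12 was labelled at its 3′ end.

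Most unlabelled HTA3 ends sat on 1 base. In each replicate 7 reads ended 181 nt inside the annotated 3′ end, and 0 of these 14 were labelled, whereas the 6 labelled reads all ended at other positions, as did 4 unlabelled reads in replicate 1 and 1 in replicate 2. The authors' processing removes a 3′ label where the genome after the end is rich in A, as it may arise from priming inside the RNA. The paper counts alignment failure as another reason for a lost label. The 20 bases after that peak hold 11 A. After the peaks of the 2 main end clusters of HTA5, the other H2A.X gene, stand 10 and 8 A, and after that of HTA6 stand 5. Over the whole clusters, reads kept the label in 40.5 of 41.5, 34 of 34 and 46.5 of 46.5 cases. At the peak bases alone, all 12 HTA5 reads of the first cluster, all 13 of the second and all 11 HTA6 reads were labelled. Of the first 10 bases, 9 are purines after the HTA3 peak, 7 and 6 after those of HTA5 and 4 after that of HTA6. HTA7 had 3 unlabelled reads, all in replicate 1, and 1 of them ended 250 nt inside, before 13 A in 20 bases and 10 purines in 10. The others ended 94 and 114 nt inside, in clusters where 45 of 46 and 4 of 5 reads kept the label. After the HTA12 peak stand 9 A, and all 8 of its reads were labelled. A smaller HTA6 cluster, with 9 A and 7 purines after its peak, kept the label in 5 of 5 reads. The 20 bases after the HTA3, HTA5 and main HTA6 peaks are given with each A in capitals, at chr1:20414477-20414496, chr1:2846910-2846929, chr1:2846968-2846987 and chr5:24115439-24115458.
HTA3: AAgAAgtgAAAtAgttAAAt
HTA5, first cluster: AAAcAcAAActAtgcAtAct
HTA5, second cluster: AAcgAAtcAtgtAtcAAtgg
HTA6: AttAtAcgcttcgtctAAtc
The part of these A in the missing HTA3 labels was not tested.

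**Figure D5:**
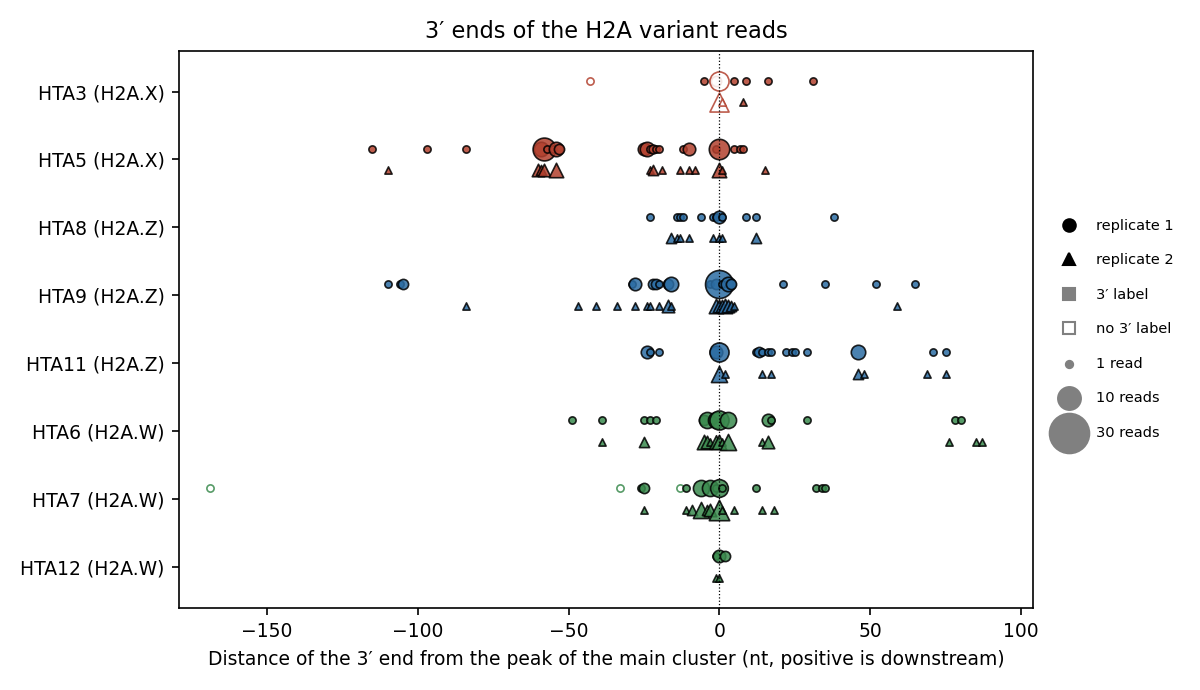
Distance in nt of read 3′ ends from the peak of the main end cluster of each H2A variant gene (horizontal axis), with filled symbols for ends with a 3′ label and open ones without, symbol area by number of reads, circles for replicate 1 and triangles for replicate 2; 1 HTA6 read far downstream lies outside the axis. The 14 HTA3 reads at the peak are all open, and HTA5 ends fall in 2 main groups.

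In the other genes, ends fell into clusters, joined where positions lay within 10 nt. HTA5 had 41.5 reads in a cluster 21 to 61 nt inside the annotated end and 34 in another at 89 to 96 nt, each in both replicates (28.5 and 13 reads, and 22 and 12). In HTA9, 45 of 81 reads ended within 9 nt of each other (50 to 58 nt inside), and 26 more at 71 to 102 nt. HTA6 placed 46.5 of 69.5 reads within 9 nt, HTA7 46 of 55 within 32 nt, HTA11 28 of 44 within 31 nt and HTA8 23 of 24 within 36 nt. Ends of HTA5 and HTA6, whose starts were sharp, were thus spread over several bases. The spread of ends is given without a value over all genes, so it is not shown as a trait of these genes. HTA6 had 23 end positions over all its 69.5 reads, beside 3 capped start positions over its 40 cap-labelled reads. The end positions include that of the read lying mostly over the neighbouring gene. These counts come from unlike sets of reads.

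HTA12 reads ended far from its outermost annotated end. All 8 reads stopped within 4 nt of each other, 610 to 613 nt inside it, in both replicates (6 and 2 reads), and all were labelled. This is 1 nt inside the end of a shorter annotated HTA12 transcript, whose extra 72-nt exon the reads lacked. The median distance of 612 nt from the outermost end compares with 110 nt in replicate 1 and 109 nt in replicate 2 for reads with an annotated chain over all nuclear genes. From the stop codon to the main 3′ end HTA12 measured 148 nt, within the range of the other 7 genes, which ran from 110 nt in HTA3 to 217 nt in HTA7. The HTA3 value runs to the peak whose 14 reads all lacked the 3′ label, and the next lowest was 146 nt in HTA6. The hexamer AATAAA, searched 6 to 40 nt before the most used end on the transcript strand, was found in HTA12. It was in 0 of the 7 variant genes with at least 10 reads and in 12% of the 9937 genes with as many.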

How the data were processed

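The authors made consensus reads with 2 primers and a poly(A) tail, aligned them to TAIR10 with minimap2 using annotated junctions, and converted them with Bookend, which masks high-error exons. The deposited values are expected counts per aligned structure, with no normalization for depth; a read with several alignments is split. Replicate 1 held 267716 aligned reads and replicate 2 held 255215.

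Here reads were assigned to every gene whose RefSeq TAIR10.1 exons they overlapped on the same strand by at least 1 nt. No structure passed a chromosome end, and 98.3% and 98.2% of introns were GT-AG. Retention needed 10 nt covered on either side. Fractional counts were rounded for the tests, which used SciPy 1.17.1 across all genes and called at an adjusted p of 0.05; the test functions were tested on simulated data. Identity came from Biopython 1.88 alignments. All 8 genes were named. Members, lists and tests were chosen with earlier results of these data known. Alternatives covered the read minimum, the overlap rule, the retention flank, length scaling, labels, the library total and test, and single replicates.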

Additional observations from a re-analysis of the deposited data

How the results depend on the processing

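No paired analysis was possible because there was 1 group, with nothing to compare between groups. The H2A.Z share of variant reads, 38.3% ± 1.61 (SD, n = 2), was 39.99% per kb and 41.6% among reads with a cap and a 3′ label, and the single replicates gave 37.2% and 39.5%. H2A.X ranged between 23.3% and 29.5% and H2A.W between 31.0% and 39.5% over single replicates. Over all genes, cap label calls numbered 68, against 41 when only reads with an annotated chain were kept, and 114 to 182 when 1 replicate decided. Exon chain calls numbered 328, against 571 at 5 reads, and 445 to 543 with 1 replicate. The causes of these differences were not tested. The HTA3 call for the 3′ label rests on the minimum of 5 reads, chosen after seeing the data, since HTA3 lay under 20, and it passed in each replicate; the other alternatives were not run at that minimum. HTA9 passed in replicate 1 alone for the 3′ label (adjusted Fisher p 0.0384) and for retention (0.0358). Depth limits the tests of single genes. HTA12 had 8 reads and entered no test, and HTA3 and HTA8 had 25 and 24.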

Other observations

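Reads on the opposite strand of the variant genes were counted apart and enter no comparison. HTA12 had 7 such reads in replicate 1, assigned to the convergent gene AT5G02570, and 0 in replicate 2. HTA8 and HTA9 had 2 each in replicate 2 and 0 in replicate 1, assigned to AT2G38800 and AT1G52750. The other 5 variant genes had none in either replicate. The octamers TTTCCCGC and TTTGGCGC, known from E2F target promoters, were searched on both strands in the same 300-nt windows as CGCGGATC. They were in 0 of the 7 variant genes with at least 5 cap-labelled reads and in 1.21% of the 10500 genes with as many.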
